A study of Homo sapiens with 18 samples.

Results

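The AP-1 transcription factor family was followed through RNA sequencing of OVCAR3, an established cell line from high-grade serous ovarian cancer. The 10 genes described are FOS, FOSB, FOSL1, FOSL2, JUN, JUNB, JUND, ATF3, MAFF and BATF3, found by symbol among 55765 gene symbols. They were chosen by name as a family, with earlier results of these data in view, so the values that drew attention to them, those of non-specific IgA, are given below as a description. All 10 passed the filter on low counts in both experiments, in which 18012 and 18732 genes were tested. In the first experiment cells received natural human IgA or IgG, neither directed at a chosen antigen, or no antibody. In the second they received IgA against the neurotrophin BDNF, IgA against the tetraspanin TSPAN7, or no antibody. Every antibody was given at 0.5 µg/ml for 24 h in medium with reduced serum, according to the sample descriptions, although another description of the same experiments gives a shorter time, and cells were detached with trypsin before RNA was extracted. Each of the 6 groups had 3 libraries, and groups were compared only within their own experiment.

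AP-1 is a dimer. FOS proteins cannot pair with each other and bind DNA with a JUN protein, whereas JUN proteins also pair among themselves. The dimers bind the TPA response element (TRE) and, depending on the partner, the closely related cyclic AMP response element (CRE). FOS, FOSB, JUN and ATF3 are known as genes that are switched on within minutes by growth factors, serum or stress and soon switched off again. FOSL1 and FOSL2 lack the strong activation domain of FOS and persist for longer, and FOSL1 is best known from invasive carcinoma cells. In epithelial cancers the family is known for driving genes of proteases, cytokines and growth factors.

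The family members lie on several chromosomes in GRCh37. FOS (ENSG00000170345) spans chr14:75745529-75748933, FOSB spans chr19:45971253-45978437, FOSL1 spans chr11:65659520-65668044, and FOSL2 spans chr2:28615315-28640184. JUN spans chr1:59242517-59249720, JUNB spans chr19:12902300-12904129 and JUND spans chr19:18390504-18392432. ATF3 spans chr1:212738676-212794119, BATF3 lies near it at chr1:212859759-212873182, and MAFF spans chr22:38596774-38612514.

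The sequences before the start sites of FOS and FOSB are shown because both genes were lower in the mean with non-specific IgA and rose with TSPAN7 IgA, and those of JUN and JUNB because these partners had the highest levels of the family in untreated cells. Each run is the 150 bases before the RefSeq start, 5′ to 3′ on the strand of the gene. RefSeq gives them on GRCh38.p14, and the positions are those of the same letters in GRCh37. Capitals mark the letters TGACGT, the core of the CRE, and TATAAA, the TATA box, on either strand.
FOS, plus strand of chr14:75745381-75745530: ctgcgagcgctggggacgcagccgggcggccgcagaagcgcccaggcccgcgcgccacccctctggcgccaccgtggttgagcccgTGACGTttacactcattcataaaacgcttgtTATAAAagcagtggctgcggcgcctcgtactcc
FOSB, plus strand of chr19:45971104-45971253: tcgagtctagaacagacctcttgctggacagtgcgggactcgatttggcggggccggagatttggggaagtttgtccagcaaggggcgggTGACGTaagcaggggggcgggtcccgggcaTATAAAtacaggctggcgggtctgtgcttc
JUN, minus strand of chr1:59249720-59249869: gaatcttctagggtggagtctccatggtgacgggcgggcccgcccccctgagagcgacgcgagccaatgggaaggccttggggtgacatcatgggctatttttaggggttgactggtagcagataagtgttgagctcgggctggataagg
JUNB, plus strand of chr19:12902150-12902299: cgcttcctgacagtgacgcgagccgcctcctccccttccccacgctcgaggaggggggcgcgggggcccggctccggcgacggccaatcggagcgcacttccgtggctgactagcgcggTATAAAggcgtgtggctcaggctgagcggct
In FOS the letters TGACGT began 64 bases and TATAAA 33 bases before the start. In FOSB they began 60 and 30 bases before it. JUNB held TATAAA alone, 31 bases before the start, and JUN held neither.

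Promoters from 250 bases before to 50 bases after the start were found for 8 of the 10 genes, as 10 promoters. FOSL1 and BATF3 had no entry. Letters were searched on both strands. The TRE, TGACTCA, was present in FOSL2, 5 bases after the start, and in 4.95% of the 35116 promoters of the table. The whole CRE, TGACGTCA, which contains the core on both strands, was present in JUND and in 1 of 2 MAFF promoters, against 1.85% of all promoters. The core TGACGT was present in promoters of FOS, FOSB, FOSL2, JUND and MAFF, against 7.98% of all. TATAAA was present in promoters of FOS, FOSB, JUNB and ATF3, against 11.5% of all. In ATF3 it began 230 bases before the start, in 1 of 2 promoters. The NF-kB site was present in the other MAFF promoter, against 11.3% of all. The CArG box, the binding site of serum response factor, was present in no member's window and in 1.29% of all promoters. Sites more than 250 bases before the start were not searched. These matches describe letters only.

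The first experiment had 27920733 to 42371474 counts per library and the second 39254350 to 47381836. IgA replicate 3 stood apart. The mitochondrial genome supplied 19.1% of its counts, against 5.75% to 8.32% in the other 8 libraries of the first experiment. Differences of the members with IgA, save those of BATF3, are therefore given with and without this library. Levels per length, shares and the differences of named list genes with IgA include it. The study's description of the first experiment calls its replicates separate experiments. For the second no such statement was found, so its p-values measure the spread between these samples, which may be technical. Fewer cells with a transcript and less of it per cell cannot be told apart in these bulk samples.

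The values below are normalised counts, that is counts brought to a common effective library size, the mean of the 9 libraries. Differences are log2 fold changes with a standard error (SE) from a fit of all 9 libraries of an experiment with edgeR, and a gene was called at a Benjamini-Hochberg adjusted p under 0.05 over all genes tested.

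The cells carried the markers of their label, with all 8 epithelial and ovarian markers at 692 counts or more in every library. Some of them moved with non-specific IgA. WT1 lay at 1093 to 2807 normalised counts with IgA against 4152 to 5099.7 in the other 6 libraries of the experiment, and KRT8 at 25116.5 to 27343 against 28972 to 38105. KRT7, at 26546 to 29154 against 19292 to 21702, and PAX8, at 21885 to 27819 against 17506 to 20949, lay higher, while EPCAM, KRT18, MSLN and MUC16 overlapped. Summed over the 8 markers the range was 154147 to 247811 with IgA and 156166 to 210476 in the others. Of the 7 markers of B cells and plasma cells, 6 did not exceed 20 counts in any library, and MS4A1 was at 0 throughout the first experiment. The seventh, SDC1, which epithelial cells also express, brought the sum to 4516 to 7077 normalised counts with IgA against 2537 to 3532 in the others. Other leukocyte markers summed to 63.2 to 76.2 against 50.99 to 58.9, with CD3E at 2 counts or fewer. The 5 fibroblast markers summed to 2398 to 4892 against 2078 to 2468, nearly all of it from COL1A1 and COL1A2, whereas DCN, LUM and PDGFRA did not exceed 24 counts in the first experiment. In the second experiment markers moved too. With TSPAN7 IgA WT1 lay at 3205 to 3366 normalised counts against 3858 to 4292 in the other 6 libraries. MUC16 lay at 63141 to 65115 against 84830 to 118085, and KRT7 higher, at 27380 to 29189 against 19266 to 25149. With BDNF IgA PAX8, at 20019 to 20679 against 17776 to 19153, and MSLN, at 1709 to 2191 against 1347 to 1703, lay higher. EPCAM, KRT8 and KRT18 overlapped. The part of these shifts in the differences below was not tested.

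With non-specific IgA the members differed from control cells in both directions. Within the FOS genes, FOSL1 was about 10 times as high as with IgG, FOSL2 was moderately higher, and FOS and FOSB were lower in the mean with wide spread. Of the JUN genes, JUNB and JUND were higher and JUN was not called. MAFF and ATF3 were higher and BATF3 stayed at or below 52.0 normalised counts. Against IgG 6 members were called higher and 0 lower, where 12.6% of all genes were called higher and 11.6% lower. Against untreated cells the same 6 were called higher and 0 lower, where 12.9% and 12.1% of all genes were called. Nothing is read from these counts of members, since the contrast was in view when they were chosen. Without IgA replicate 3 the members called higher numbered 5 against IgG and 6 against untreated cells, and those called lower numbered 0 and 1.

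**Figure D1:**
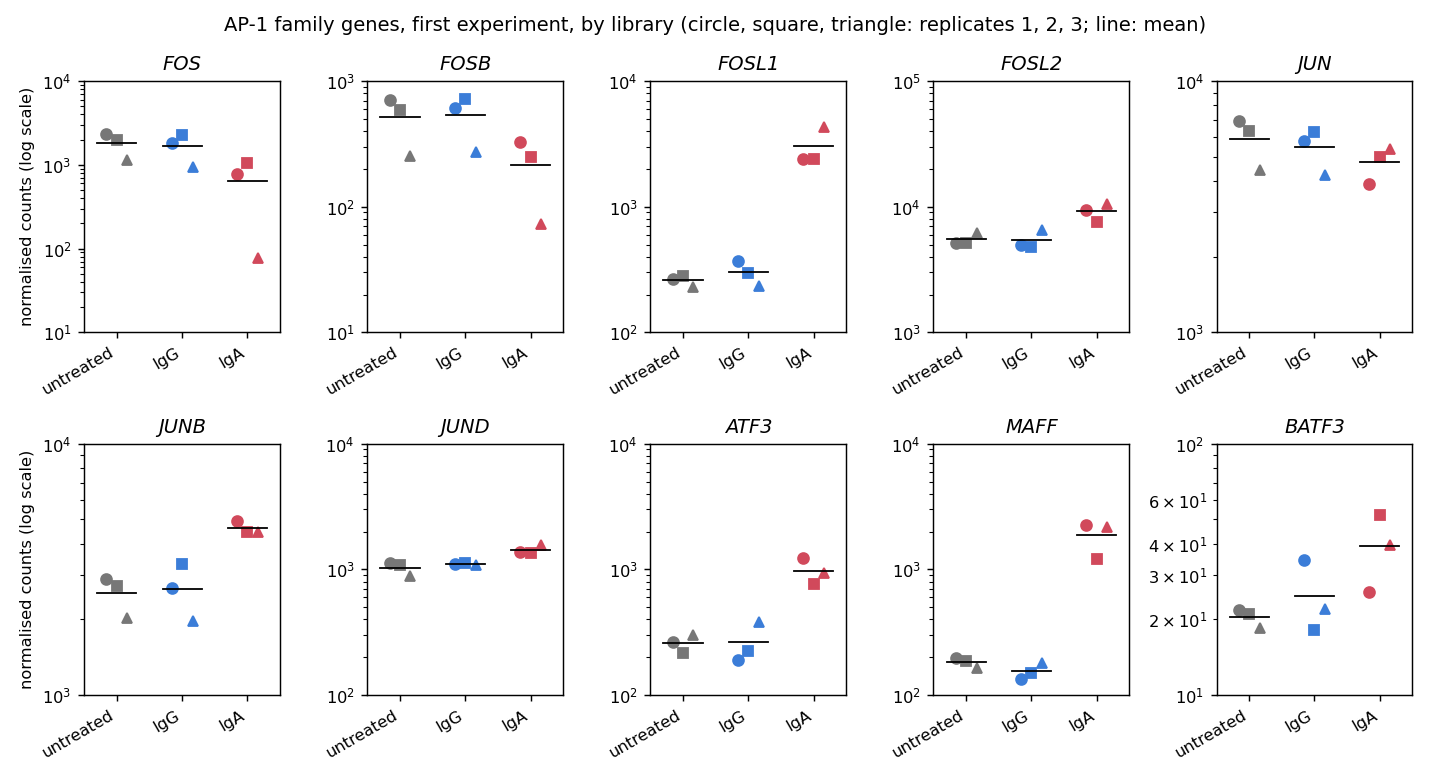
Normalised counts of the 10 AP-1 family genes in each library of the first experiment, on a logarithmic y axis that differs between panels. Symbols stand for replicates 1, 2 and 3 and black lines for group means. FOSL1 lay at 2384 to 4287 with IgA against 230.4 to 372 in the other 6 libraries, whereas FOS and FOSB were lowest in IgA replicate 3.

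FOSL1 encodes FRA-1. Its normalised counts were 2384, 2386 and 4287 in the 3 IgA libraries. They were 372, 297 and 233 with IgG, and 268, 283 and 230.4 in untreated cells. No IgA library came near the others, and the highest was replicate 3. The log2 difference was 3.32 (SE 0.24, n = 3 per group) from IgG and 3.53 (SE 0.24) from untreated cells. It was 2.98 and 3.19 without IgA replicate 3.

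FOSL2, which encodes FRA-2, started from a far higher level. Its normalised counts were 9415, 7520 and 10595 with IgA, 4975, 4823 and 6508 with IgG, and 5144, 5102 and 6215 in untreated cells. The IgA libraries were above all others, with a log2 difference of 0.76 (SE 0.15) from IgG and 0.74 (SE 0.15) from untreated cells. The FOSL2 difference was 0.64 and 0.62 without IgA replicate 3.

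FOS itself went the other way in the mean. It stood at 779, 1052 and 77.4 normalised counts with IgA, 1804, 2296 and 951 with IgG, and 2358, 1998 and 1130 in untreated cells. The IgA libraries were all below the untreated ones but overlapped those with IgG, and IgA replicate 3 was far below every other library. The log2 difference was -1.39 (SE 0.57) from IgG and -1.502 (SE 0.57) from untreated cells, and FOS was not called in either. It shrank to -0.88 and -0.996 without IgA replicate 3, and the latter was then called. Without IgA replicate 2 it was -1.94 and -2.06, both called.

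FOSB, the closest relative of FOS, varied like it. It had 325, 249 and 72.7 normalised counts with IgA, 614, 716 and 270.1 with IgG, and 704, 592 and 255 in untreated cells. The lowest library of each group was replicate 3, and the groups overlapped. Between libraries of the same number FOSB differed by -0.92, -1.52 and -1.89 in log2 from IgG. From untreated cells these differences were -1.11, -1.25 and -1.81. The log2 difference of FOSB was -1.29 (SE 0.48) from IgG and -1.24 (SE 0.48) from untreated cells. It was -0.90 and -0.85 without IgA replicate 3, and FOSB was called with neither set. FOSB was called lower without IgG replicate 3 (-1.61) and without untreated replicate 3 (-1.57), in the comparison with the group concerned.

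JUN encodes c-Jun, one of the JUN proteins with which FOS proteins bind DNA. JUN had normalised counts of 3878, 5005 and 5346 with IgA, 5798, 6290 and 4234 with IgG, and 6910, 6327 and 4408 in untreated cells. These ranges overlapped. JUN differed on the log2 scale by -0.20 (SE 0.18) from IgG and -0.31 (SE 0.18) from untreated cells, and -0.29 and -0.41 without IgA replicate 3.

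JUNB, a weaker activator than JUN, stood at 4906, 4442 and 4466 normalised counts with IgA. It stood at 2670, 3310 and 1976 with IgG and at 2886, 2726 and 2021 in untreated cells. The IgA libraries were close to each other and above the rest. JUNB differed on the log2 scale by 0.80 (SE 0.17) from IgG and 0.86 (SE 0.17) from untreated cells, and 0.81 and 0.88 without IgA replicate 3.

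JUND, commonly the steadiest JUN gene, stood at 1377, 1349 and 1565 normalised counts with IgA, at 1109, 1125 and 1085 with IgG, and at 1134, 1079 and 891 in untreated cells. The difference was small and the groups did not overlap. The log2 difference of JUND was 0.37 (SE 0.12) from IgG and 0.47 (SE 0.12) from untreated cells, and 0.30 and 0.40 without IgA replicate 3. The call against IgG was lost without IgA replicate 3, without any one IgG library, with no filter on low counts (0.36) and in a fit of the 6 libraries compared (0.37). The call against untreated cells was lost without untreated replicate 3, where the difference was 0.37.

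MAFF encodes a small MAF protein, which has no activation domain of its own and pairs with FOS, NRF or BACH proteins. Its normalised counts were 2238, 1216 and 2178 with IgA, 133, 150.2 and 181 with IgG, and 197, 188 and 165 in untreated cells. The lowest IgA library was more than 6 times the highest of the others. The log2 difference of MAFF was 3.60 (SE 0.23) from IgG and 3.35 (SE 0.22) from untreated cells, and 3.48 and 3.23 without IgA replicate 3.

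ATF3 is a stress-induced factor that pairs with JUN proteins and often represses. Its normalised counts were 1231, 765 and 943 with IgA, 189, 226 and 382 with IgG, and 263, 214 and 302 in untreated cells. The groups did not overlap. The log2 difference of ATF3 was 1.89 (SE 0.25) from IgG and 1.91 (SE 0.25) from untreated cells, and 1.91 and 1.94 without IgA replicate 3.

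BATF3 is known chiefly from dendritic cells and T cells, where it pairs with JUN proteins. It was scarce here, at 25.8, 52.0 and 39.5 normalised counts with IgA, 34.5, 18.2 and 22.0 with IgG, and 21.8, 21.0 and 18.5 in untreated cells. The IgA libraries overlapped those with IgG and were above the untreated ones. BATF3 differed on the log2 scale by 0.65 (SE 0.44) from IgG and 0.93 (SE 0.45) from untreated cells, and it was not called.

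IgG served as the antibody control. Between IgG and untreated cells 0 members were called, and 0% of all genes were called higher and 0% lower by edgeR. DESeq2 called 0 genes as well, and 89 of 18012 genes had an unadjusted p under 0.05. For all 10 members the IgG and untreated libraries overlapped. Their log2 differences lay between -0.25 (SE 0.22), that of MAFF, and 0.29 (SE 0.45), that of BATF3, each with an edgeR adjusted p of 1.00. FOS differed by -0.12 (SE 0.56) and FOSL1 by 0.21 (SE 0.23).

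In the second experiment the spread between libraries was far narrower, with a common dispersion of 0.00303 against 0.0307 in the first, and differences as small as 0.17 on the log2 scale were called. FOS and FOSL2 rose with BDNF IgA. With TSPAN7 IgA FOS, FOSB, FOSL1, FOSL2, JUN and ATF3 rose, FOSB and ATF3 the furthest. JUNB, JUND, MAFF and BATF3 were not called with either antibody. MAFF with TSPAN7 IgA was called when TSPAN7 IgA replicate 3 was left out (0.39), and, at 0.29 to 0.30 on the log2 scale, with no filter on low counts and in a fit of the 6 libraries compared. The MAFF values lay within 441 and 671 normalised counts over the 9 libraries. BDNF IgA against untreated cells gave 2 members called higher, where 4.49% of all genes were called higher, and 0 called lower, where 3.18% were. TSPAN7 IgA against untreated cells gave 6 called higher, where 4.46% of all genes were, and 0 called lower, where 4.08% were. Both comparisons share the untreated libraries.

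**Figure D2:**
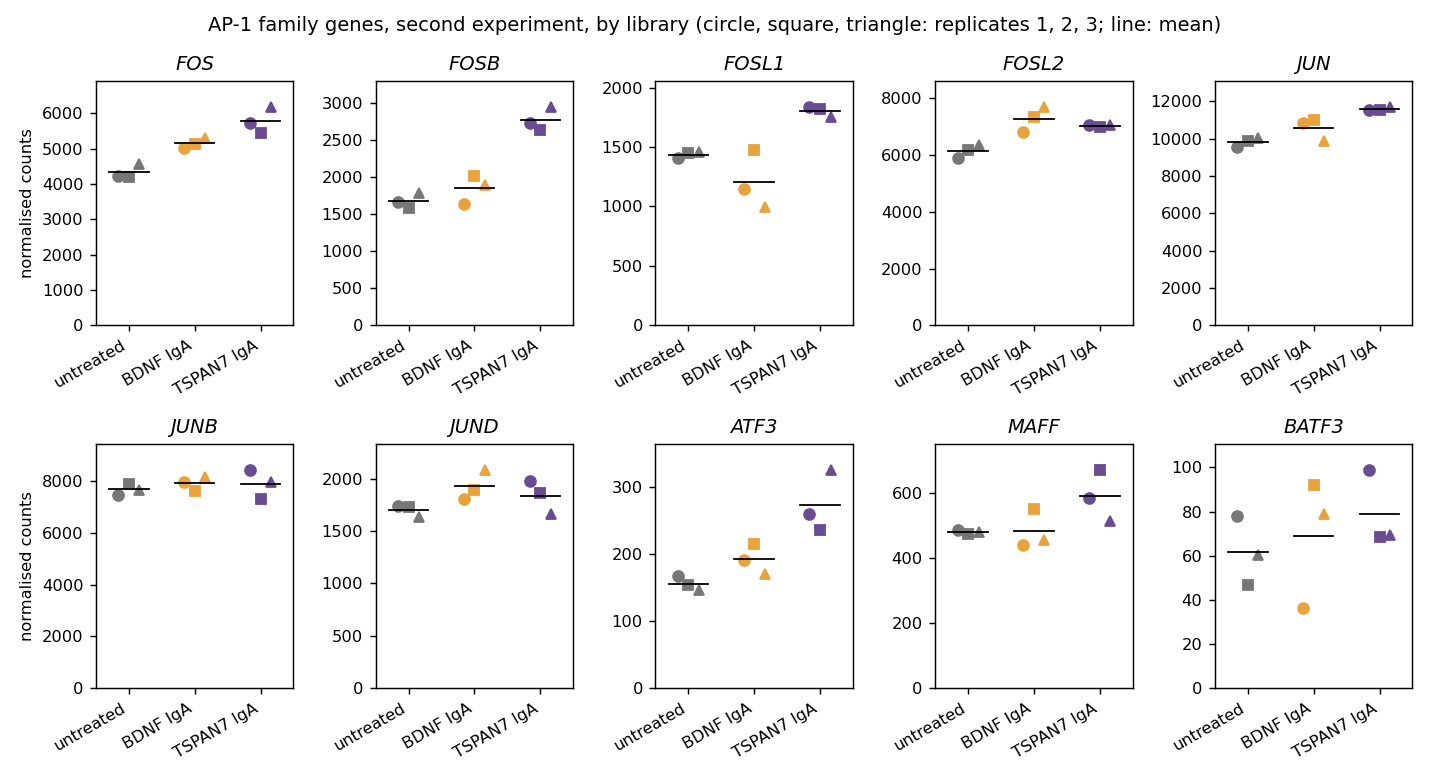
Normalised counts of the 10 AP-1 family genes in each library of the second experiment, on a linear y axis that starts at 0 and differs between panels. Symbols stand for replicates 1, 2 and 3 and black lines for group means. FOSB lay at 2631 to 2943 with TSPAN7 IgA, above the 1580 to 2009 of the other 6 libraries.

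FOSB gave the clearest separation. FOSB lay at normalised counts of 2730, 2631 and 2943 with TSPAN7 IgA, 1639, 2009 and 1892 with BDNF IgA, and 1657, 1580 and 1780 in untreated cells. The TSPAN7 libraries were above all others, while BDNF and untreated libraries overlapped. From untreated cells FOSB differed on the log2 scale by 0.73 (SE 0.07, edgeR adjusted p = 2.02e-07) with TSPAN7 IgA. It was 0.14 (SE 0.07, edgeR adjusted p = 0.220) with BDNF IgA.

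FOS lay at 5733, 5437 and 6171 normalised counts with TSPAN7 IgA, at 5018, 5136 and 5291 with BDNF IgA, and at 4227, 4206 and 4552 in untreated cells. The 3 groups did not overlap. From untreated cells FOS differed on the log2 scale by 0.42 (SE 0.05, edgeR adjusted p = 1.02e-05) with TSPAN7 IgA and 0.25 (SE 0.05, edgeR adjusted p = 0.00314) with BDNF IgA.

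FOSL1 lay at 1834, 1821 and 1752 normalised counts with TSPAN7 IgA. It lay at 1150, 1473 and 997 with BDNF IgA and at 1408, 1447 and 1454 in untreated cells. With TSPAN7 IgA the FOSL1 difference from untreated cells was 0.33 (SE 0.09, edgeR adjusted p = 0.0212). That call was lost in 5 of the 6 fits that left out a library, all but the one without TSPAN7 IgA replicate 3, with differences from 0.31 to 0.34. With BDNF IgA the FOSL1 difference was -0.25 (SE 0.09, edgeR adjusted p = 0.0880). BDNF IgA replicate 2 lay above the untreated libraries and the other BDNF libraries below them. Without that library the FOSL1 difference was -0.42 and was called lower (edgeR adjusted p = 2.55e-05).

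FOSL2 lay at 7066, 6984 and 7059 normalised counts with TSPAN7 IgA, at 6826, 7328 and 7685 with BDNF IgA, and at 5887, 6183 and 6367 in untreated cells. Both antibody groups were above the untreated one and overlapped each other. The log2 difference of FOSL2 from untreated cells was 0.20 (SE 0.05, edgeR adjusted p = 0.0113) with TSPAN7 IgA and 0.24 (SE 0.05, edgeR adjusted p = 0.00241) with BDNF IgA. The first of these calls was lost without untreated replicate 1, where the difference was 0.17.

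JUN lay at 11513, 11519 and 11675 normalised counts with TSPAN7 IgA, at 10828, 10970 and 9864 with BDNF IgA, and at 9555, 9847 and 10008 in untreated cells. The TSPAN7 libraries were nearly equal and above all others. From untreated cells JUN differed on the log2 scale by 0.24 (SE 0.04, edgeR adjusted p = 0.00153) with TSPAN7 IgA and 0.11 (SE 0.04, edgeR adjusted p = 0.158) with BDNF IgA. JUNB ran from 7305 to 8444 and JUND from 1634 to 2082 normalised counts over the 9 libraries, and both differed from untreated cells by at most 0.18 on the log2 scale.

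ATF3 lay at 260, 235 and 325 normalised counts with TSPAN7 IgA, at 191, 215 and 170.1 with BDNF IgA, and at 166, 153 and 146 in untreated cells. The 3 groups did not overlap. ATF3 differed from untreated cells by 0.82 (SE 0.13, edgeR adjusted p = 4.12e-04) on the log2 scale with TSPAN7 IgA and by 0.31 (SE 0.14, edgeR adjusted p = 0.189) with BDNF IgA.

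The antibodies against TSPAN7 and BDNF were also compared with each other. FOSB, FOSL1, ATF3 and FOS were called higher with TSPAN7 IgA and 0 members lower, where 3.42% of all genes were called higher and 4.5% lower. The log2 difference was 0.58 (SE 0.07, edgeR adjusted p = 3.05e-05) for FOSB and 0.58 (SE 0.09, edgeR adjusted p = 3.42e-04) for FOSL1. It was 0.51 (SE 0.13, edgeR adjusted p = 0.0200) for ATF3 and 0.17 (SE 0.05, edgeR adjusted p = 0.0428) for FOS. The ATF3 call was lost without BDNF IgA replicate 1 or 3 or TSPAN7 IgA replicate 3, with differences of 0.51, 0.43 and 0.37. The FOS call was lost without BDNF IgA replicate 1 or 3 or TSPAN7 IgA replicate 1 or 3, with differences of 0.15, 0.19, 0.18 and 0.12. JUN differed by 0.13 (SE 0.04, edgeR adjusted p = 0.0737) and MAFF by 0.29 (SE 0.10, edgeR adjusted p = 0.0733), and neither was called. Without BDNF IgA replicate 2 both were called, with differences of 0.16 for JUN and 0.40 for MAFF, and MAFF was also called without TSPAN7 IgA replicate 3, with 0.38.

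**Figure D3:**
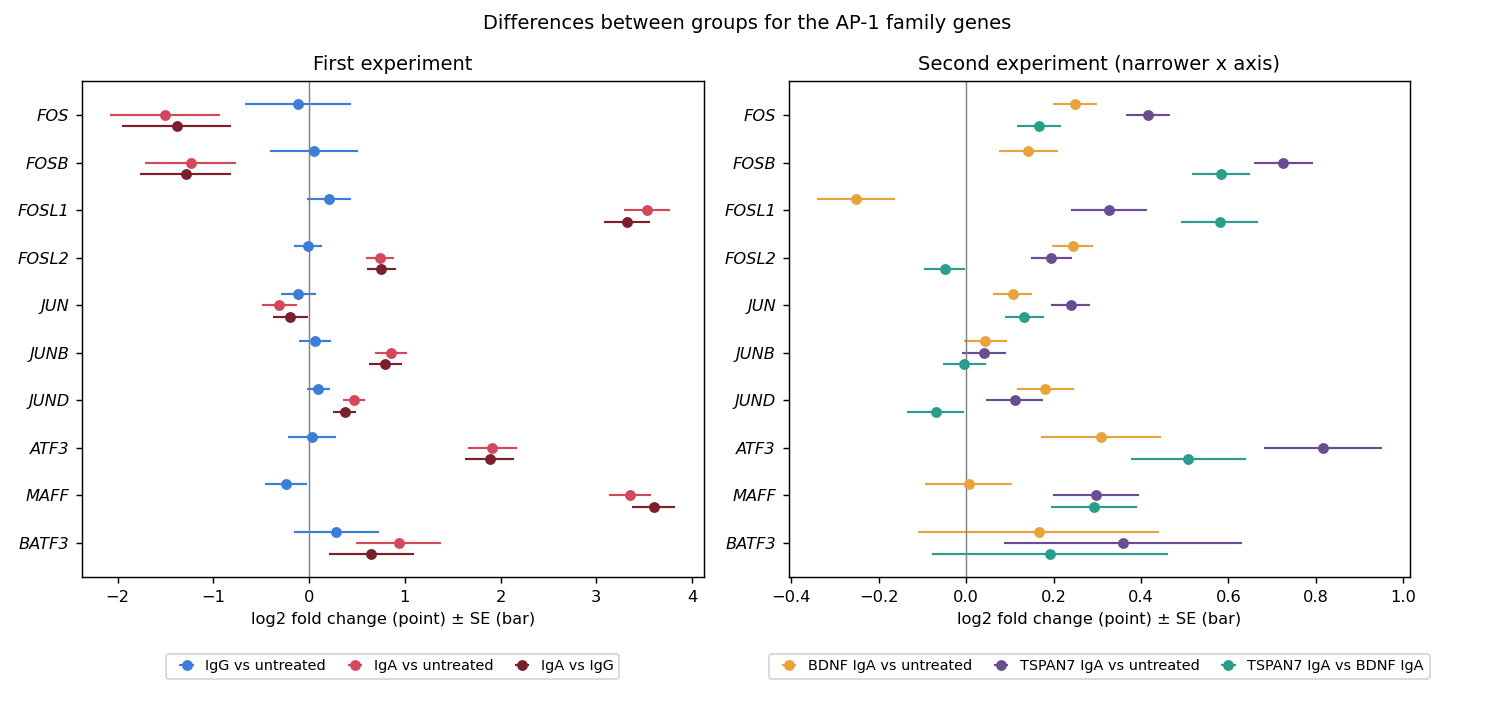
Log2 fold changes of the 10 AP-1 family genes in the 6 comparisons, with points for estimates and bars for 1 SE, 3 libraries per group. In the first experiment, on the wider axis, MAFF and FOSL1 lay above 3 with IgA and FOS and FOSB below -1, while in the second every difference lay between -0.25 and 0.82.

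Levels can be compared between genes only per length. CPM, that is counts scaled to a fixed effective library size, was divided by the exon length of each gene in kilobases. JUN and JUNB led the family in cells without antibody. In untreated cells of the first experiment the level was 46.05 ± 10.2 CPM per kb (SD, n = 3) for JUN and 39.5 ± 7.13 for JUNB, and these ranges overlapped. FOSL2 followed at 21.7 ± 2.499, FOS at 16.3 ± 5.62 and JUND at 15.2 ± 1.87, each overlapping its neighbour. FOSL1 stood at 3.92 ± 0.409, FOSB at 2.64 ± 1.19 and ATF3 at 1.84 ± 0.312, again with overlap between neighbours. MAFF at 0.928 ± 0.0838 and BATF3 at 0.226 ± 0.0189 were the lowest and separate from each other. IgG gave nearly the same order, with JUND and FOS exchanged among overlapping values.

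With non-specific IgA the order was different. JUNB led at 71.4 ± 4.06 CPM per kb (SD, n = 3), apart from all others. FOSL1 was next at 45.4 ± 16.5, JUN stood at 37.1 ± 6.01 and FOSL2 at 36.4 ± 6.15, with overlap between neighbours. JUND followed at 21.0 ± 1.73, and MAFF at 9.49 ± 2.90 and ATF3 at 6.95 ± 1.67 lay above FOS at 5.67 ± 4.48, these neighbours overlapping. FOSB was at 1.10 ± 0.662 and BATF3 at 0.432 ± 0.145.

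In untreated cells of the second experiment JUNB led at 99.1 ± 2.73 CPM per kb (SD, n = 3), before JUN at 63.8 ± 1.497 and FOS at 32.0 ± 1.44, with no overlap. JUND at 20.8 ± 0.704 and FOSL2 at 20.2 ± 0.799 overlapped, FOSL1 stood at 17.96 ± 0.310 and FOSB at 7.104 ± 0.428. MAFF at 2.02 ± 0.0253, ATF3 at 0.915 ± 0.0597 and BATF3 at 0.566 ± 0.145 were lowest. With BDNF IgA FOSL2 and JUND changed places, and with TSPAN7 IgA FOSL2 and FOSL1 moved past JUND, in each case among overlapping values. With the longest transcript as gene length FOSL2 already ranked above JUND in the untreated cells. With TSPAN7 IgA the FOSL1 level was 22.5 ± 0.556 CPM per kb and that of JUND 22.4 ± 1.97.

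The share of each gene in the summed level of the 4 FOS genes shows the same data as a composition. In the first experiment FOSL1 made up 8.80% ± 0.593 (SD, n = 3) in untreated cells, 10.3% ± 1.99 with IgG and 50.3% ± 8.54 with IgA. FOS made up 35.9% ± 9.16, 33.5% ± 10.9 and 7.14% ± 5.94 in the same groups. The 3 IgA libraries ranged from 43.8% to 60.0% for FOSL1 and from 0.641% to 12.3% for FOS, and neither overlapped another group. FOSL2 held 49.5% ± 11.2 in untreated cells, 50.1% ± 13.9 with IgG and 41.2% ± 3.80 with IgA, which overlapped. Among the 3 JUN genes, JUNB made up 39.2% ± 0.479 in untreated cells, 40.8% ± 2.75 with IgG and 55.2% ± 4.36 with IgA, and JUN 45.5% ± 1.62, 42.5% ± 1.30 and 28.6% ± 4.03. No test was run on these shares, which rest on the same libraries as the differences.

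In the second experiment the shares differed by a few percentage points between groups. FOS held 41.4% ± 0.565 of the FOS genes in untreated cells, 44.9% ± 1.92 with BDNF IgA and 42.7% ± 1.43 with TSPAN7 IgA (SD, n = 3). FOSL1 held 23.2% ± 0.568, 17.7% ± 3.00 and 22.5% ± 1.16, its BDNF libraries, from 14.7% to 20.7%, lying below all others. FOSL2 held 26.2% ± 0.481, 28.2% ± 1.40 and 23.1% ± 0.589, with no overlap between the 3 groups. FOSB held 9.18% ± 0.336, 9.21% ± 0.533 and 11.7% ± 0.327, and its TSPAN7 libraries, from 11.5% to 12.1%, lay above the others.

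**Figure D4:**
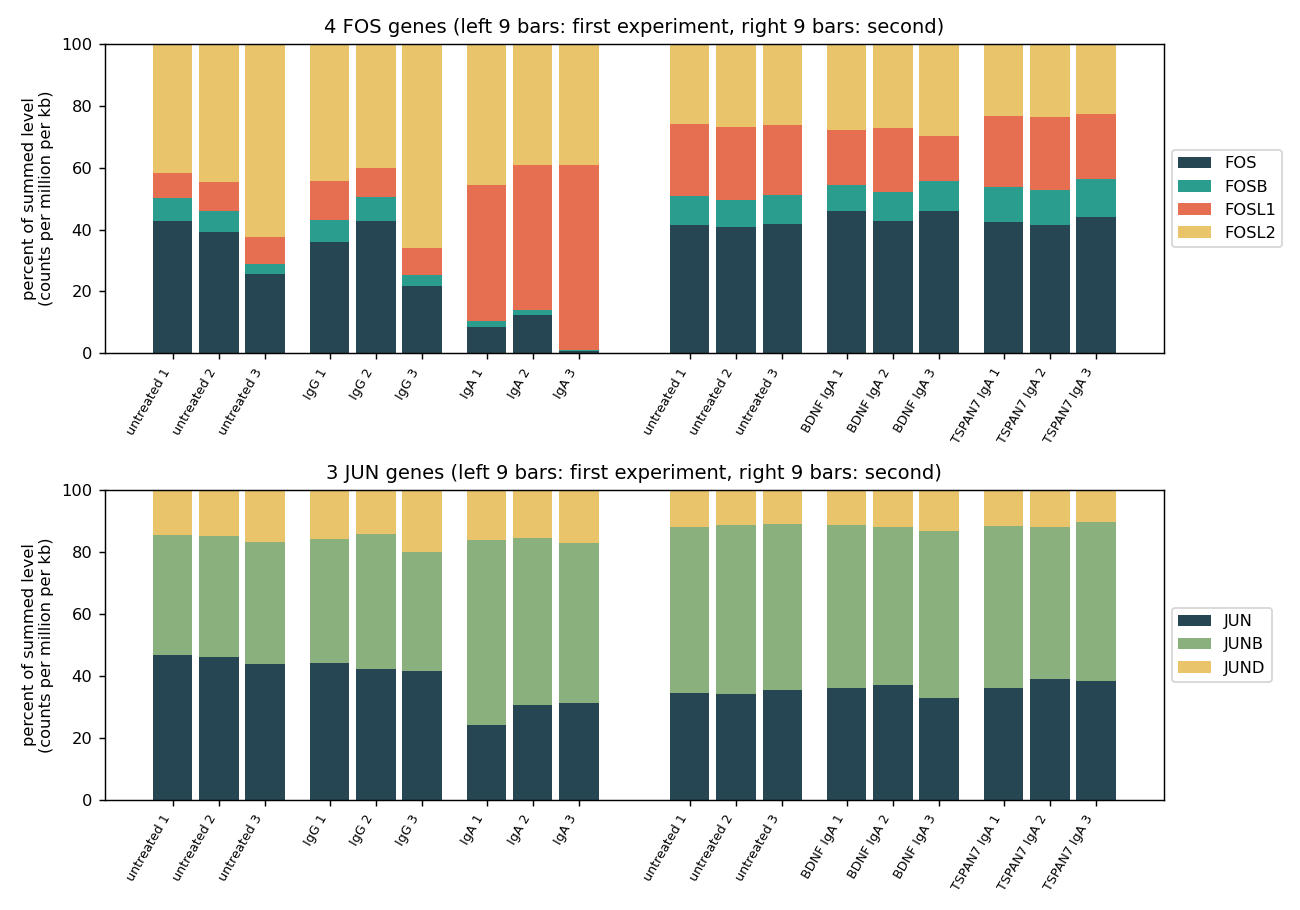
Shares of the summed level (CPM per kb of exon) of the 4 FOS genes, above, and of the 3 JUN genes, below, as stacked bars for each library, with the first experiment on the left and the second on the right. In the IgA libraries of the first experiment FOSL1 took 43.8% to 60.0% and FOS 0.641% to 12.3%, while in the second experiment FOS held 40.8% to 46.1% in every library.

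Other proteins complete or compete with these dimers, and 5 lists of them and of genes around them were counted, each beside the median of all genes tested. The shares of all genes called, given above, were 12.6% higher and 11.6% lower than with IgG and 12.9% and 12.1% against untreated cells for non-specific IgA, 4.49% and 3.18% for BDNF IgA, 4.46% and 4.08% for TSPAN7 IgA, and 3.42% and 4.5% between the antibodies. The counts below are descriptions to be set beside these shares. The list of dimer partners held 19 genes, of which 17 were tested. With non-specific IgA 7 were called higher and 2 lower than with IgG, with a median log2 difference of 0.20 against -0.01 over all genes. DDIT3, which encodes CHOP, was higher by 2.17 (SE 0.28) and ATF7 by 0.97 (SE 0.14). NFE2, a partner of the small MAF proteins, differed by -1.01 (SE 0.19). Against untreated cells the counts were again 7 and 2, and without IgA replicate 3 they were the same in both comparisons. With BDNF IgA 5 dimer partners were called higher and 0 lower, and with TSPAN7 IgA 6 higher and 1 lower than in untreated cells, with medians of 0.11 and 0.06. With TSPAN7 IgA NFE2L3 rose by 0.39 (SE 0.08, edgeR adjusted p = 0.00270) and NFE2 differed by -0.61 (SE 0.13, edgeR adjusted p = 0.00571). BATF2 rose with both, by 1.34 (SE 0.23, edgeR adjusted p = 9.44e-04) and 1.36 (SE 0.24, edgeR adjusted p = 7.04e-04), from 31.0 ± 3.39 normalised counts (SD, n = 3) in untreated cells. The 5 called with BDNF IgA fell to 1 without BDNF IgA replicate 3, to 2 without BDNF IgA replicate 1 or untreated replicate 1, and to 3 without either other untreated library. The 6 called higher with TSPAN7 IgA became 3 to 5 in the fits that left out a library, with 3 without untreated replicate 1. Between the antibodies 0 were called higher with TSPAN7 IgA and 1, NFE2, lower.

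Of 20 other bZIP factors tested, 6 were called higher and 0 lower with non-specific IgA than with IgG, with a median of 0.25. CREB5 was higher by 1.82 (SE 0.23), CEBPD, a factor of acute-phase genes, by 1.71 (SE 0.23), NFIL3 by 1.08 (SE 0.20) and CREB3L2, a membrane-bound factor of the secretory pathway, by 0.94 (SE 0.14). Against untreated cells 7 were called higher and 1 lower, with a median of 0.24, and without IgA replicate 3 the counts were 8 and 0 against IgG and 8 and 1 against untreated cells. With BDNF IgA 1 was called higher and 1 lower, and with TSPAN7 IgA 0 in either direction, where 0 was also the count in each of the 6 fits that left out a library. The BDNF counts went to 0 in both directions without BDNF IgA replicate 3 or untreated replicate 1 or 2, and to 5 and 2 without BDNF IgA replicate 2. Between the antibodies 2 were higher and 4 lower with TSPAN7 IgA, CEBPD being higher by 0.33 (SE 0.06, edgeR adjusted p = 0.00208), and 1 and 0 without BDNF IgA replicate 3 or TSPAN7 IgA replicate 2.

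The MAP kinase cascade holds the kinases that phosphorylate JUN and FOS proteins. Of its 28 genes tested, 6 were called higher and 4 lower with non-specific IgA than with IgG, with a median of 0.11, and 6 and 2 against untreated cells. Without IgA replicate 3 the counts were 7 and 3, and 8 and 4. The kinases called lower were not stable. Against IgG 1 was left without IgA replicate 1 and 0 without any one IgG library, and against untreated cells 1 or 0 without any one untreated library. MAP3K5, which encodes the stress kinase ASK1, was higher by 1.30 (SE 0.15) and MAP2K3, which activates p38, by 0.61 (SE 0.11) than with IgG. MAP2K1, which activates ERK, was higher by 0.60 (SE 0.12) than in untreated cells. With BDNF IgA 1 was called higher and 0 lower, and with TSPAN7 IgA 2 higher and 1 lower than in untreated cells. The 1 higher with BDNF IgA was not called without BDNF IgA replicate 1 or 3 or untreated replicate 2, while 3 were higher and 2 lower when BDNF IgA replicate 2 was left out, and the 2 higher with TSPAN7 IgA became 1 or 0 in 5 of 6 fits that left out a library. MAP2K7, which activates JNK, was lower with TSPAN7 IgA, by -0.28 in log2 (SE 0.06, edgeR adjusted p = 0.00268). Of serum response factor and its partners, which switch on FOS, 2 of 6 were called higher and 2 lower with non-specific IgA in each comparison. ELK3, a ternary complex factor, was higher by 1.14 (SE 0.15) than with IgG, and kept its call in each of the 6 fits that left out a library, whereas the other 3 did not. With TSPAN7 IgA 0 of the 6 were called against untreated cells, and with BDNF IgA 1 was called in each direction, neither of them without BDNF IgA replicate 1 or 3 or untreated replicate 1.

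Genes known to be driven by AP-1 formed the list with the largest differences. Of 28 tested, 22 were called higher and 0 lower with non-specific IgA than with IgG, with a median log2 difference of 1.63 against -0.01 over all genes. Against untreated cells 23 were called higher and 0 lower, with a median of 1.67. Without IgA replicate 3 the counts were the same and the medians 1.39 and 1.63. The chemokine IL8 (CXCL8) was higher by 6.88 (SE 0.31) than with IgG, at 16707 ± 4678 against 140.5 ± 37.2 normalised counts (SD, n = 3). The cytokine IL6 was higher by 4.53 (SE 0.24), the related IL11 by 3.94 (SE 0.59) and the EGF receptor ligand EREG by 3.82 (SE 0.28). Against untreated cells another such ligand, AREG, was higher by 4.70 (SE 0.74). Many of these genes are also driven by other factors, and this list was chosen with earlier results of these data known.

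With antibodies of known specificity genes of the same list were called in both directions, more of them higher than lower against untreated cells. Of 27 tested, 7 were called higher and 1 lower with BDNF IgA, and 11 higher and 2 lower with TSPAN7 IgA than in untreated cells, with medians of 0.21 and 0.10 against 0.00 over all genes. IL8 rose with both, by 0.71 (SE 0.08, edgeR adjusted p = 4.98e-06) and 1.45 (SE 0.08, edgeR adjusted p = 3.91e-11). With TSPAN7 IgA IL6 rose by 1.35 (SE 0.22, edgeR adjusted p = 2.98e-04), the receptor kinase AXL by 0.85 (SE 0.11, edgeR adjusted p = 1.79e-05) and EREG by 0.77 (SE 0.17, edgeR adjusted p = 0.00590). With BDNF IgA the protease gene MMP7 rose by 1.01 (SE 0.20, edgeR adjusted p = 0.00261) and the chromatin protein gene HMGA1 by 0.36 (SE 0.05, edgeR adjusted p = 3.62e-05). TSPAN7 IgA against BDNF IgA gave 6 higher and 6 lower. IL6 was among the first, by 0.94 (SE 0.21, edgeR adjusted p = 0.00746), a call that was lost without BDNF IgA replicate 1 (0.74) or TSPAN7 IgA replicate 2 (0.81). The protease genes MMP1 and MMP10 were among the second, by -0.83 (SE 0.13, edgeR adjusted p = 3.45e-04) and -0.90 (SE 0.19, edgeR adjusted p = 0.00472). These counts of 6 and 6 were 3 and 4 without BDNF IgA replicate 1, 3 and 3 without BDNF IgA replicate 3, and 2 and 4 without TSPAN7 IgA replicate 2. Against untreated cells the 7 higher with BDNF IgA ran from 5 to 11 over the fits that left out a library. The count of 11 was that without BDNF IgA replicate 2, and the 1 lower ran from 0 to 1. The 2 lower with TSPAN7 IgA became 1 without any one TSPAN7 library or untreated replicate 2.

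**Figure D5:**
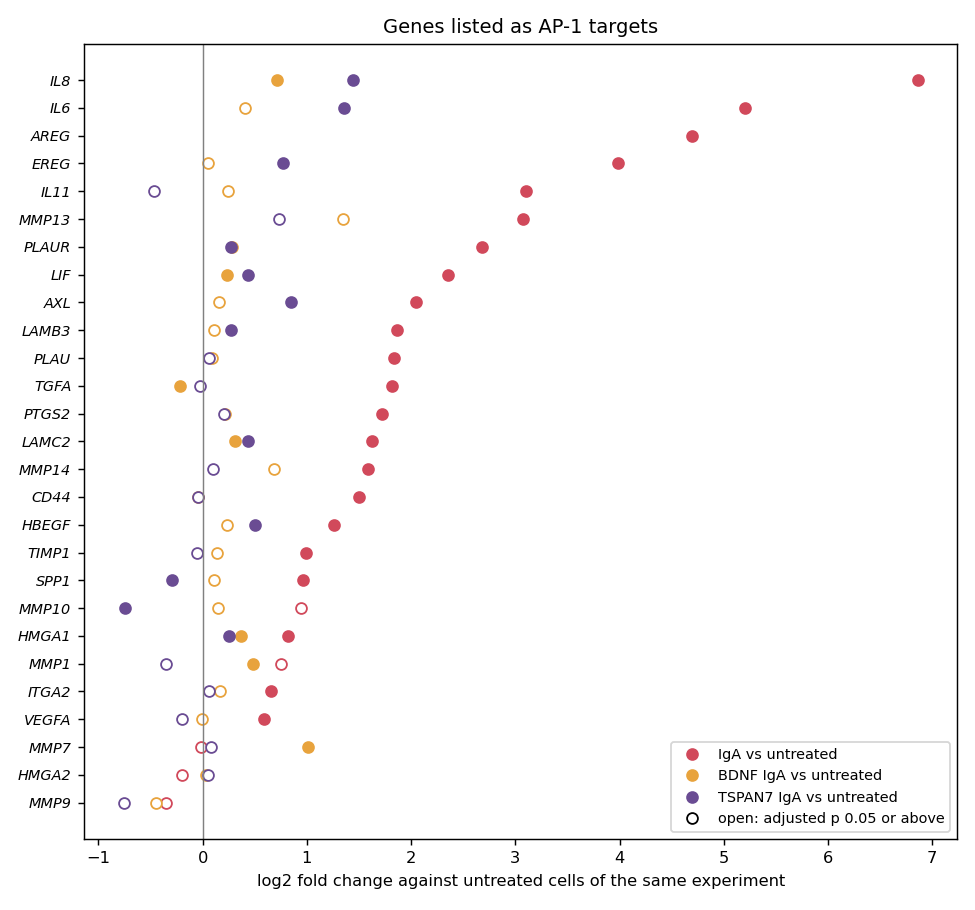
Log2 fold changes against untreated cells of the same experiment for 27 of the 28 genes listed as AP-1 targets and tested in the first experiment, with filled points for an adjusted p under 0.05 and open points for others. With non-specific IgA 22 points were filled, all to the right of 0, up to 6.86 for IL8, while with BDNF IgA and TSPAN7 IgA filled points lay on both sides of 0.

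The genes whose log2 CPM followed FOSL1 most closely over the 9 libraries of the first experiment were MYL12A (Pearson r = 0.999), PDIA4 (r = 0.998) and MYEOV (r = 0.997), among 13506 candidates. Those closest to FOS were RPP30 (r = 0.989), CSTF1 (r = 0.987) and POU2F3 (r = 0.985). In the second experiment, among 14073 candidates, TUBA4A (r = 0.985), LRRC59 (r = 0.984) and PSMD14 (r = 0.983) were closest to FOSL1, and EIF4EBP1 (r = 0.979), NEK7 (r = 0.978) and ATG5 (r = 0.967) to FOS. The 9 points share 3 groups, so these values describe the libraries, and the lists of the experiments had no gene in common.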

How the data were processed

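RNA was sequenced from 18 libraries of OVCAR3 cells, 3 in each of 6 groups taken from the sample titles. The authors' methods name cutadapt for trimming of the paired-end reads, STAR with GRCh37 for alignment and featureCounts for counting, whereas the submitters' processing notes list bcl2fastq 2.20.0.422, cutadapt 1.8.1 and HTSeq 0.6.1. The deposited values are raw counts per gene, with no normalization. Use of strand in the counting was not given in the sources used here, so overlapping and antisense genes may share reads. In the second experiment 2055 rows that repeated another row exactly, with 1.99% to 2.46% of a library's counts, were removed. Within a group no library was a copy of another, since the chi-square per degree of freedom between its replicates was 4.16 or more. No source used here names molecular identifiers, and errors are those between replicates.

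The 9 libraries of an experiment were fitted together by the two-sided quasi-likelihood test of edgeR 4.0.16 (R 4.3.3), after filterByExpr and TMM scaling, with Benjamini-Hochberg adjustment over all genes of a comparison and a threshold of 0.05. An SE was obtained by dividing the log2 difference, without sign, by the root of its F value. Log2 CPM used a prior count of 2. Exon lengths and positions are from GENCODE v44 lifted to GRCh37, promoters from RefSeq. The members and the 5 lists were chosen with earlier results of these data known. All 10 members were named. From each list and comparison up to 4 called genes with the largest change could be named, and those whose call was lost without a library were mostly given by count only. Some genes of the lists are counted but not reported here by name. For FOSL1 and FOS the 3 genes with the highest Pearson r among genes with a mean of at least 50 normalised counts were named. Alternatives were DESeq2 1.42.0, other scalings and filters, fits of 6 libraries, leaving out mitochondrial and ribosomal RNA genes, a stricter threshold of 0.01, a replicate block, other gene lengths, and leaving out each library. The scripts were tested on simulated data. The lists without each library, the shares within the FOS and JUN genes, the marker sums and the promoter letters were added after the data were seen.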

Additional observations from a re-analysis of the deposited data

Results flagged for a closer look

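FOS differed in sign between the experiments. In each of the 3 IgA libraries of the first experiment FOS was below the mean of the untreated cells, with a log2 difference of -1.502 (SE 0.57), or -0.996 without IgA replicate 3. This difference was not called over all 3 IgA libraries, but was called without IgA replicate 2 or 3. In each library with BDNF IgA FOS was above the mean of the untreated cells of its own experiment, by 0.25 (SE 0.05), and in each library with TSPAN7 IgA likewise, by 0.42 (SE 0.05). The difference between these responses was not tested, and the experiments differed in their untreated levels, in depth and in spread.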

How the results depend on the processing

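The 60 differences (10 members in 6 comparisons) were recomputed 897 times in all over the alternatives. In 811 of these values direction and side of the threshold were kept, in 30 the call was lost, in 29 one was gained and in 27 the sign changed. The sign of a called difference changed in 0 of them. Some calls against untreated cells of the second experiment were kept at 0.05 under each alternative run and without each library. They were those of FOS and FOSL2 with BDNF IgA, and of FOSB, FOS, ATF3 and JUN with TSPAN7 IgA. FOSL1, MAFF, ATF3, JUNB and FOSL2 with non-specific IgA likewise stayed under the threshold against both controls. For these genes this is a description only, since that contrast was in view when the members were chosen.

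Members called lower with IgA than with IgG numbered 0, but 1 with library totals only, 2 with no filter on low counts and 2 with the replicate block, and 0 to 1 over the fits without one library. Against untreated cells the 0 became 1, 3 and 2 in the same order, and 0 to 1 without one library. With BDNF IgA the 0 became 1 with no filter and 1 with the block, and 0 to 1 without one library. Members called higher with TSPAN7 IgA than with BDNF IgA numbered 4, 2 at an adjusted p under 0.01, and 2 to 6 without one library. The members called lower were FOS and FOSB, with JUN added against untreated cells without the filter, and FOSL1 with BDNF IgA. The cause was not tested. Library totals in place of TMM moved the median of all genes by -0.23 against IgG and by -0.21 against untreated cells, and the JUND calls were then lost.

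Same-numbered libraries of different groups had deviations that correlated from -0.07 to 0.25 in the first experiment and from -0.02 to 0.09 in the second, not over 0.1 in every pair, and not every library correlated best with its own number, so the replicate block is given here only. It moved 8 of the 60 differences, 7 to a call and 1 in sign, which was MAFF with BDNF IgA, to -0.0012. The calls gained were those of FOS and FOSB with non-specific IgA in both comparisons, of FOSL1 with BDNF IgA, and of MAFF with TSPAN7 IgA in both comparisons. With no filter on low counts MAFF was likewise called in both.

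Changes of sign were all in differences not called. Between IgG and untreated cells FOSL2 became 0.011 with library totals. Without one library the difference between IgG and untreated cells ran from -0.41 to 0.17 for FOS, from -0.28 to 0.37 for FOSB, from -0.16 to 0.082 for FOSL2, from -0.29 to 0.040 for JUN, from -0.13 to 0.23 for JUNB, from -0.0030 to 0.17 for JUND, from -0.32 to 0.22 for ATF3 and from -0.026 to 0.47 for BATF3. With BDNF IgA it ran from -0.10 to 0.066 for MAFF and from -0.092 to 0.47 for BATF3, with TSPAN7 IgA from -0.011 to 0.10 for JUNB. Between the antibodies it ran from -0.051 to 0.050 for JUNB and from -0.11 to 0.45 for BATF3.

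With the longest transcript as gene length the share of FOSL1 in the 4 FOS genes was 7.79% in untreated cells of the first experiment, 19.8% in those of the second and 19.0% with TSPAN7 IgA, and changed by less than 1 SD in the other 3 groups. In untreated cells of the first experiment FOS then held 43.1% and FOSL2 42.4%, in place of 35.9% and 49.5%. The order of these genes there thus depended on the length used. BATF3 was too low, and FOS and FOSB in the first experiment too variable in the fit without a replicate block, for small differences to be detectable. FOS and FOSB were lowest in replicate 3 of each group of that experiment. In the fit with the replicate block FOSB with IgA differed by -1.40 from IgG and -1.34 from untreated cells. FOS differed by -1.66 and -1.83, and both genes were called lower in both comparisons.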
